A study of Arabidopsis thaliana with 12 samples.

Results

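The aquaporins, or major intrinsic proteins, of Arabidopsis thaliana are described here by their transcripts. The family was taken as 35 gene loci, found by locus code among the 36917 genes of the count table. All 35 were present. They divide by name into 13 plasma membrane intrinsic proteins (PIP; 5 in clade PIP1 and 8 in clade PIP2), 10 tonoplast intrinsic proteins (TIP), 9 nodulin 26-like proteins (NIP) and 3 small basic intrinsic proteins (SIP). Isoform names are written with a hyphen, so that PIP2-5 stands for the gene usually given as PIP2;5.

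Aquaporins are membrane channels that let water pass along an osmotic gradient. PIPs sit in the plasma membrane and TIPs in the membrane of the vacuole, and together they set how readily water enters and leaves a growing cell. Some members also carry hydrogen peroxide, ammonia, urea, carbon dioxide or boric acid, and several isoforms are known from pollen or seeds. Expanding tissues such as the fruit wall, whose cells enlarge by filling their vacuoles, are known to be rich in PIP and TIP transcripts.

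RNA was sequenced from 4 groups of 3 libraries, and each library was made from a pool of about 20 organs. The fruit libraries held stage 12 to 16 pistils or siliques, of ful-1 mutants and of wild-type plants in ecotype Ler (Landsberg erecta). The meristem libraries held dissected inflorescence meristems with their buds until stage 3 or 4, of ful-7 mutants (a SALK insertion line) and of wild-type plants in ecotype Col-0. All plants grew on rockwool at 21 °C with 16 h of light. The ful alleles disrupt FRUITFULL, a MADS-domain transcription factor of fruit and meristem, and each tissue was profiled with 1 allele in 1 ecotype, so that allele, ecotype and tissue cannot be told apart. The deposited columns name a group but no replicate, so the library numbers used here only follow the column order.

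Total counts lay between 13191949 and 38215149 in ful-1 pistils, 30528403 and 34276079 in Ler pistils, 47262598 and 83606724 in ful-7 meristems and 38340498 and 59830057 in Col-0 meristems. The smallest library, ful-1 pistil library 3, stood apart. Across genes its Spearman correlation with the other pistil libraries was at most 0.916, and its plastid genes held 2.04% of the counts (0.118% to 0.393% in the other 5 pistil libraries). Pistil results are given with and without it. FUL itself averaged 7.07 ± 3.92 CPM in ful-1 and 102 ± 5.43 CPM in Ler pistils, and 2.48 ± 0.793 CPM in ful-7 and 118 ± 30.5 CPM in Col-0 meristems (SD, n = 3 each). CPM are counts per 1000000 of a library's total count times its scaling factor (TMM), with 1 set of factors over all 12 libraries. The factor was 0.736 for ful-1 pistil library 3 and 1.02 to 1.12 for the other 5 pistil libraries. This raises the CPM of library 3 against its shares of the counts. TPM, counts per kb of exonic length scaled to 1000000 in each library, use no such factor. Summed over 5 pistil and ovule markers, levels were 308 to 685 CPM in the pistil libraries and 14.7 to 18.7 CPM in the meristem libraries, and summed over 6 meristem markers 22.4 to 34.6 CPM and 251 to 297 CPM.

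The channel pore of an aquaporin is lined by a pair of short motifs, usually asparagine-proline-alanine (NPA). The coding sequence around the first motif is shown for leading isoforms of the 4 subfamilies and for NIP5-1, a boric acid channel. In this motif NIP5-1 and the SIPs depart from NPA. Each line gives 27 bases of the RefSeq coding sequence (TAIR10.1), with the 3 codons of the motif in capitals.
PIP2-7: ggtcacattAACCCAGCTgtgactttc
TIP1-2: ggccacgttAACCCTGCCgttaccttc
NIP1-2: gctcatttcAATCCGGCCgtcacaatc
NIP5-1: gctcacctaAACCCATCActgaccata
SIP1-1: gctagcttcAATCCTACCggaagcgct
SIP2-1: gggctttatAATCCTTTGaccgctttg
Of the 35 members, 27 carried 2 NPA motifs in full, among them all 13 PIPs and all 10 TIPs but 4 of 9 NIPs and 0 of 3 SIPs. In NIP1-2 the first motif was NPA, as in the PIPs and TIPs, and the second ended in glycine. In NIP5-1 the third residue was serine in the first motif and valine in the second. In the SIPs the first motif ended in threonine (SIP1-1), cysteine (SIP1-2) or leucine (SIP2-1).

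Levels of different genes were compared as CPM per kb of exonic length. A handful of PIPs and TIPs made up most of the family's transcripts in both tissues. The 8 highest members held 80.5% to 84.6% of the family sum in ful-1 pistils, 85.5% to 87.1% in Ler pistils, 92.3% to 93.1% in ful-7 meristems and 91.3% to 92.7% in Col-0 meristems. In ful-1 pistil library 3 these 8 included SIP2-1, at 285 CPM per kb, and elsewhere all were PIPs and TIPs. The family as a whole took 0.321% to 0.472% of the counts in ful-1 pistils and 0.443% to 0.460% in Ler pistils. Its share was 0.575% to 0.610% in ful-7 meristems and 0.533% to 0.569% in Col-0 meristems.

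PIP2-7 (AT4G35100), a plasma membrane water channel, had the highest mean in 3 of the 4 groups, all but ful-1 pistils. It stood at 447, 464 and 260 CPM per kb in ful-1 pistils, 468, 476 and 419 in Ler pistils, 761, 759 and 693 in ful-7 meristems and 646, 638 and 696 in Col-0 meristems. The ful-7 and Col-0 ranges overlapped, and in pistils ful-1 library 3 was the lowest of the 6. PIP1-2, a PIP1 isoform with a known part in leaf and root water conductance, led in ful-1 pistils with 496, 471 and 718 CPM per kb, against 370, 372 and 358 in Ler pistils. In meristems it reached 311, 318 and 282 CPM per kb in ful-7 and 281, 272 and 225 in Col-0.

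Among the vacuolar channels, TIP2-1, which also conducts ammonia, was the highest TIP in pistils, and TIP1-2 was the highest TIP in meristems. TIP2-1 had 348, 317 and 543 CPM per kb in ful-1 pistils against 420, 362 and 394 in Ler pistils, and 554, 566 and 489 in ful-7 meristems against 467, 448 and 484 in Col-0. TIP1-2 had 245, 264 and 290 CPM per kb in ful-1 pistils against 389, 308 and 452 in Ler pistils, and 746, 751 and 685 in ful-7 meristems against 664, 631 and 643 in Col-0. In meristems the ranges of PIP2-7, TIP1-2 and TIP1-1 overlapped within each genotype. In Ler pistils so did those of PIP2-7, TIP2-1 and TIP1-2, and of TIP2-1, TIP1-2 and PIP1-2. By these ranges their order was not resolved. Library by library, PIP2-7 lay above TIP1-2 in each ful-7 meristem library and above TIP2-1 in each Ler pistil library. The other overlapping pairs changed order between libraries.

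NIPs and SIPs were minor. NIP1-2, a channel of the nodulin 26 type, was the highest NIP in every group and had 16.8, 13.6 and 9.37 CPM per kb in ful-1 pistils, 13.3, 12.99 and 14.4 in Ler pistils, 10.3, 8.96 and 12.6 in ful-7 and 11.9, 10.8 and 10.8 in Col-0 meristems. These ranges overlapped between genotypes in both tissues. The SIPs, channels of the endoplasmic reticulum, were led by SIP1-1 in Ler pistils and by SIP2-1 in meristems. In ful-1 pistils SIP1-1 had 51.4, 52.3 and 29.98 CPM per kb and SIP2-1 had 29.0, 33.3 and 285, so SIP2-1 led there through library 3 alone. In Ler pistils SIP1-1 had 51.1, 48.8 and 46.9 CPM per kb and SIP2-1 had 36.2, 32.9 and 37.8. In meristems SIP2-1 had 56.2, 53.6 and 56.0 CPM per kb in ful-7 and 55.3, 58.8 and 38.1 in Col-0, with overlapping ranges. At the other end, 6 members had too few counts for the test in pistils (TIP2-3, TIP3-2, NIP1-1, NIP2-1, NIP3-1 and NIP4-1) and 5 in meristems (TIP1-3, TIP2-3, NIP3-1, NIP4-1 and NIP4-2). TIP3-1 and TIP3-2, which mark the protein storage vacuoles of seeds, stayed at or under 2.27 CPM in every library.

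**Figure D1:**
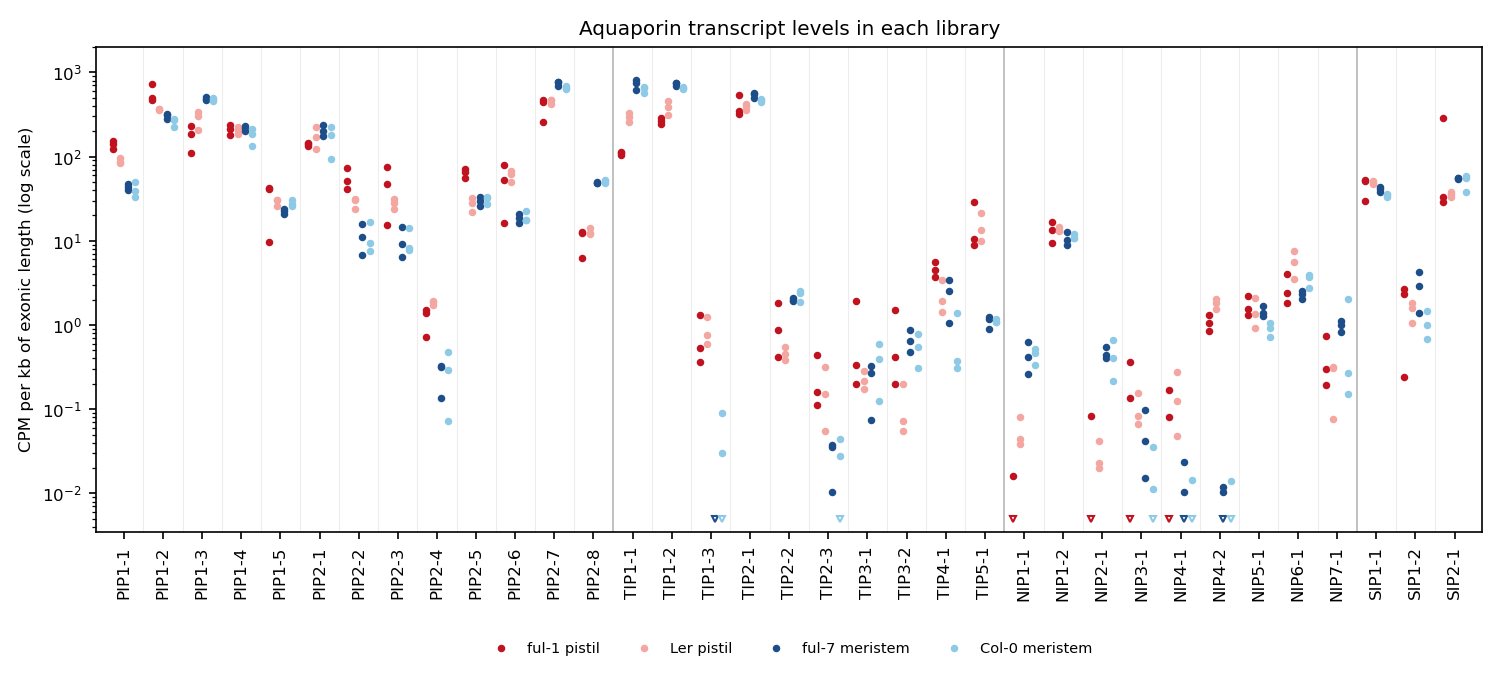
CPM per kb of exonic length (log axis) of the 35 aquaporins in each of the 12 libraries, 3 points a group; an open triangle at the lower edge marks a library with 0 counts, and grey lines part the subfamilies. PIP1-2, PIP2-7, TIP1-2 and TIP2-1 lie among the 6 highest in all 4 groups and TIP1-1 in all but ful-1 pistils, where it is at rank 10, while most NIPs lie under 10 CPM per kb.

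PIPs and TIPs divided the family sum differently in the 4 groups. TIPs held 25.8%, 25.3% and 32.9% of the family sum per kb in ful-1 pistils, against 37.2%, 36.2% and 37.2% in Ler pistils. All 3 ful-1 libraries lay below all 3 Ler libraries, and library 3 was the nearest to them. PIPs held 70.5%, 70.7% and 56.1% in ful-1 pistils, against 59.1%, 60.0% and 59.3% in Ler pistils, so that library 3 fell on the other side of wild type from its group mates. In meristems TIPs held 47.4%, 48.6% and 44.7% in ful-7 and 46.6%, 43.6% and 48.8% in Col-0, with overlapping ranges. These shares are descriptions over the members and carry no test. In RNA from whole organs, fewer cells of a type and less RNA per cell cannot be told apart.

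**Figure D2:**
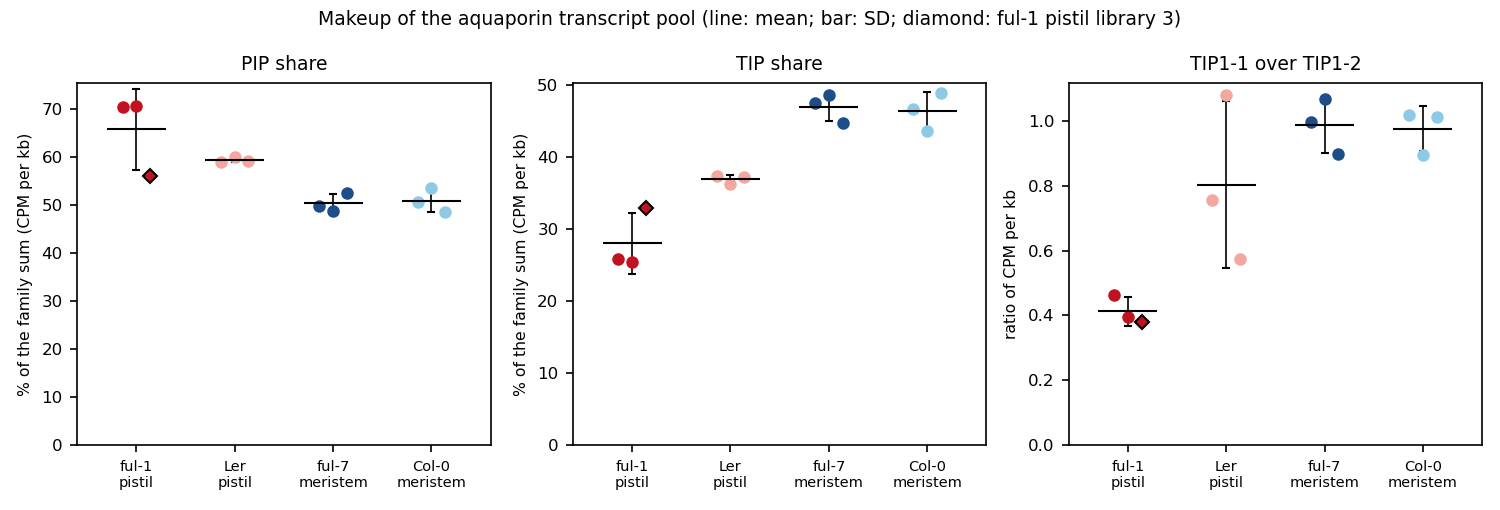
Share of PIPs and of TIPs in the summed CPM per kb of the family (%), and the ratio of TIP1-1 to TIP1-2, in each library; lines are means, bars SD (n = 3), and the outlined diamond is ful-1 pistil library 3. The TIP1-1 to TIP1-2 ratio is 0.381 to 0.464 in ful-1 pistils and 0.575 to 1.08 in Ler pistils, and 0.895 to 1.07 over the 6 meristem libraries.

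The pistil comparison asked which transcripts depend on FUL in the young fruit. The vacuolar channel TIP1-1 was lower and several plasma membrane channels were higher in ful-1 than in Ler pistils, but over all 6 libraries 0 of the 29 members tested passed edgeR's quasi-likelihood test at an adjusted p of 0.05. At an unadjusted p under 0.05 there were 5, DESeq2 called 4 (3 higher, 1 lower), against 3.92% of all genes in DESeq2. Of all genes tested in edgeR 0.186% passed the adjusted threshold (0.0845% higher and 0.101% lower) and 10.3% the unadjusted one. Without library 3, edgeR called 7 of 29, with 6 higher and 1 lower in ful-1, where the background was 13.4% of all genes (5.12% higher and 8.26% lower). At an unadjusted p under 0.05 there were 12 members, against 30.9% of all genes. All 6 that rose were PIPs, 3 of the 5 PIP1 and 3 of the 8 PIP2 isoforms, and the 1 that fell was a TIP. Leaving out any other single pistil library called 0 of the members, but these fits called 0 of all genes, or 1 without ful-1 library 2.

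TIP1-1 (AT2G36830, RefSeq symbol GAMMA-TIP), an abundant vacuolar channel for water and hydrogen peroxide, had 141, 129 and 137 CPM in ful-1 pistils and 364, 412 and 321 CPM in Ler pistils. The groups were well apart, and library 3 lay between its group mates in CPM. In TPM TIP1-1 was apart too (199, 181 and 99.6 against 456, 549 and 420), with library 3 the lowest. Its log2 fold change was -1.40 ± 0.22 (SE) over 6 libraries, with an adjusted p of 0.126, the lowest of the family. Without library 3 it fell by 1.48 ± 0.13 on the log2 scale, with an adjusted p of 0.00287. TIP1-2, the closest relative of TIP1-1 with 82.6% identity over 729 aligned exonic bases, had 316, 340 and 373 CPM in ful-1 and 502, 397 and 583 CPM in Ler pistils. These ranges did not overlap either, but the log2 fold change of -0.48 ± 0.26 (SE; adjusted p of 0.515), or -0.63 ± 0.17 (SE; adjusted p of 0.062) without library 3, did not pass in edgeR. DESeq2 called it without library 3, at an adjusted p of 0.00503.

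PIP2-5 (AT3G54820), a plasma membrane water channel, had the lowest p of the members that were higher in ful-1 over 6 libraries; without library 3 PIP1-1 had a lower one. It had 99.8, 126 and 119 CPM in ful-1 pistils and 49.7, 57.0 and 39.6 CPM in Ler pistils, and each ful-1 library lay above each Ler library. The log2 fold change was 1.28 ± 0.24 (SE) over 6 libraries with an adjusted p of 0.176, and 1.17 ± 0.18 (SE) without library 3 with an adjusted p of 0.0130. The upstream sequences of TIP1-1 and PIP2-5, which differed in opposite directions, and of the neighbours PIP2-2 and PIP2-3 are shown for context, each from 250 bases before to 50 bases after the annotated start (RefSeq, TAIR10.1, gene strand), with any TATAAA on either strand in capitals.
TIP1-1 (chr2:15445044-15445343, plus strand): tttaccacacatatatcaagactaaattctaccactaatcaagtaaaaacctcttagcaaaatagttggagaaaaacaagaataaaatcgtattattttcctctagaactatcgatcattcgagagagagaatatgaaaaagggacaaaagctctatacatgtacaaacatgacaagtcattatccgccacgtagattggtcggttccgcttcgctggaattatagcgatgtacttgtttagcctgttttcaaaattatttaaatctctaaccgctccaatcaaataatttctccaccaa
PIP2-5 (chr3:20301509-20301808, plus strand): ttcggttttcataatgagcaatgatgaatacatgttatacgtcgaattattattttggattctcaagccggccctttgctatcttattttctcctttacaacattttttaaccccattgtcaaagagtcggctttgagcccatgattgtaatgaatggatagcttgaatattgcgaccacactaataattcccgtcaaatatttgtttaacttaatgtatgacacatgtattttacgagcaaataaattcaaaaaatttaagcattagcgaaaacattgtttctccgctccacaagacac
PIP2-2 (chr2:15614973-15615272, minus strand): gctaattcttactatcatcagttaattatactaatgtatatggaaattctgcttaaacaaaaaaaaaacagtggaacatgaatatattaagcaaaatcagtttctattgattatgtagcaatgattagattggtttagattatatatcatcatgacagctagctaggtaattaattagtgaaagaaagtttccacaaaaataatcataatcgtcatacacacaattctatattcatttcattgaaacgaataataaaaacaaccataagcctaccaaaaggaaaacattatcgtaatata
PIP2-3 (chr2:15617385-15617684, plus strand): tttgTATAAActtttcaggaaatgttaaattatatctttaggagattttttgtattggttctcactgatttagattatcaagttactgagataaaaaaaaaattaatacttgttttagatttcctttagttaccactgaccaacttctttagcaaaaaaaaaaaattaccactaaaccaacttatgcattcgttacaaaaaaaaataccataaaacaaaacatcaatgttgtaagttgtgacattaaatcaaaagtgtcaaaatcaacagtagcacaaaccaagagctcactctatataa
None of these 4 windows held a CArG box, the motif name for sites bound by MADS-domain factors, or a G-box (CACGTG). A CArG box occurred in 1 of the 35 members' windows (TIP3-1) and in 3.05% of 27443 windows of all genes, a G-box in 1 member (TIP3-2) and in 7.68%, and TATAAA in 16 members and in 52.1%, counting both strands. A missing match says only that these letters are not in the window.

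PIP2-2 and PIP2-3 (RefSeq symbols PIP2B and RD28) are head-to-head neighbours on chromosome 2 with 2612 bases between their gene models. Their exonic sequences share 94.9% identity over 856 aligned bases. Of all 150-base windows of the transcripts, 7.78% of PIP2-2 and 8.68% of PIP2-3 match the other exactly. Reads may therefore have been split between them, and both values are uncertain. PIP2-2 had 98.7, 69.6 and 55.0 CPM in ful-1 pistils against 31.9, 41.9 and 41.1 CPM in Ler, without overlap. In TPM it had 128, 89.9 and 36.9 against 36.8, 51.4 and 49.5, where the ranges overlapped. PIP2-3 had 90.6, 57.1 and 18.8 CPM in ful-1 against 28.7, 34.5 and 37.8 CPM in Ler, where library 3 was the lowest of the 6. Over 6 libraries the log2 fold changes were 0.98 ± 0.25 and 0.71 ± 0.49 (SE; adjusted p of 0.299 and 0.568). Without library 3 they rose by 1.09 ± 0.18 and 1.09 ± 0.21 (SE; adjusted p of 0.0172 and 0.0259).

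In clade PIP1, whose proteins reach the plasma membrane mainly together with PIP2 partners, 3 isoforms rose without library 3. PIP1-1 (AT3G61430) had 219, 239 and 189 CPM in ful-1 pistils against 148, 130 and 132 CPM in Ler, without overlap. In TPM PIP1-1 had 246, 267 and 110 against 148, 138 and 138, with library 3 below Ler. Its log2 fold change was 0.68 ± 0.20 (SE; adjusted p of 0.333) over 6 libraries and 0.70 ± 0.09 (SE; adjusted p of 0.00821) without library 3. PIP1-2 had 792, 753 and 1146 CPM against 592, 594 and 572 CPM, without overlap, and library 3 was the highest on this scale. In TPM library 3 was the lowest ful-1 library instead, and PIP1-2 had 869, 819 and 648 against 575, 613 and 580 in Ler. Its log2 fold change of 0.67 ± 0.31 (SE; adjusted p of 0.499) became 0.36 ± 0.08 (SE; adjusted p of 0.0432) without library 3. PIP1-5 had 56.5, 54.5 and 12.7 CPM in ful-1 against 40.4, 34.4 and 41.0 CPM in Ler. Its ful-1 libraries lay on both sides of wild type, and the log2 fold change was 0.08 ± 0.49 (SE; adjusted p of 0.945) with and 0.48 ± 0.10 (SE; adjusted p of 0.0283) without library 3.

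The other 2 PIP1 and 5 PIP2 isoforms did not pass in either fit. Their log2 fold changes without library 3 ran from -0.49 ± 0.22 (SE) for PIP1-3 to 0.10 ± 0.21 (SE) for PIP2-6. Of the tested TIPs, NIPs and SIPs other than TIP1-1, all 15 missed the threshold in both fits. TIP4-1 had 4.39, 6.61 and 5.25 CPM in ful-1 and 2.29, 4.04 and 1.69 CPM in Ler pistils, a log2 fold change of 1.05 ± 0.40 (SE; unadjusted p of 0.037, adjusted p of 0.457). SIP2-1 rested on 1 library, with 37.2, 42.8 and 366 CPM in ful-1 and 46.5, 42.2 and 48.6 CPM in Ler pistils. Its log2 fold change of 1.84 ± 0.97 (SE; adjusted p of 0.505) was -0.24 ± 0.10 (SE; adjusted p of 0.188) without library 3. SIP2-1 shares 11.4% of its exonic length with CRD1 (AT3G56940), a chlorophyll synthesis gene on the opposite strand. CRD1 had 484, 513 and 1366 CPM in ful-1 and 689, 690 and 813 CPM in Ler pistils, so library 3 was high for both genes, and the part of the overlap was not tested.

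**Figure D3:**
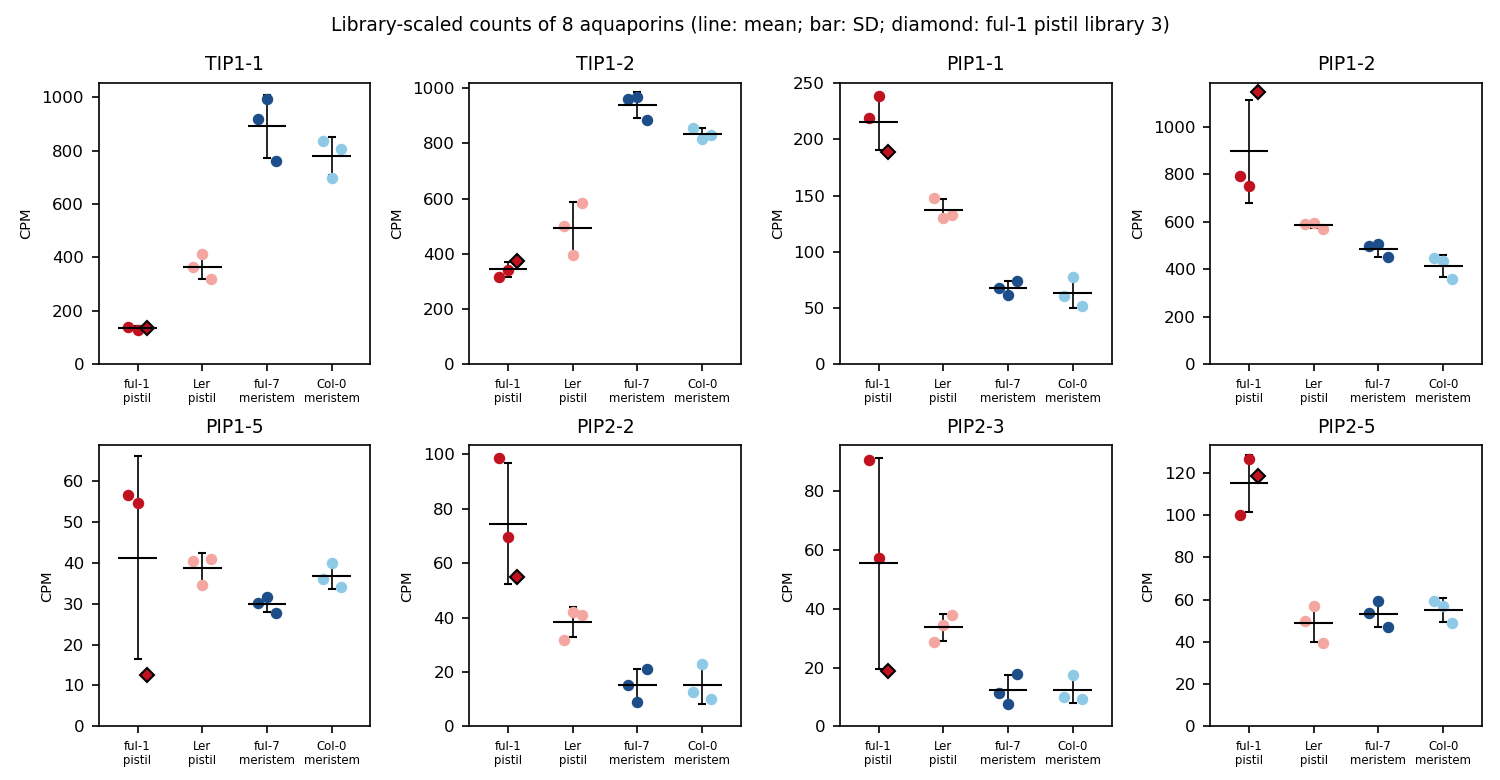
CPM of TIP1-1, TIP1-2, PIP1-1, PIP1-2, PIP1-5, PIP2-2, PIP2-3 and PIP2-5 in each library of the 4 groups; lines are means, bars SD (n = 3), and the outlined diamond is ful-1 pistil library 3. The ful-1 pistils lie apart from the Ler pistils for TIP1-1 (129 to 141 against 321 to 412 CPM) and PIP2-5 (99.8 to 126 against 39.6 to 57.0 CPM), while library 3 leaves its group mates for PIP1-5 and PIP2-3.

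Counted by overlap of CPM alone, 5 of the 29 members tested had all 3 ful-1 libraries above all 3 Ler libraries (PIP1-1, PIP1-2, PIP2-2, PIP2-5 and TIP4-1), 4 had them below (PIP2-4, TIP1-1, TIP1-2 and NIP4-2), and 20 overlapped. Over all genes tested, 13.3% were wholly higher and 13.1% wholly lower in CPM, 26.4% together. In TPM, PIP1-1, PIP2-2 and TIP4-1 overlapped with Ler through library 3, while PIP1-2, PIP2-5 and the 4 lower members stayed apart. The median log2 fold change of the members was 0.08 over 6 libraries, against 0.01 for all genes, and 0.08 against 0.01 without library 3. Other cell type markers differed between these pistils too. Summed over 5 pistil and ovule markers, levels were 461 to 685 CPM in ful-1 and 308 to 340 CPM in Ler pistils, with none at 0, and 4 of 5 rose without library 3. Over 5 green leaf markers they were 8634, 9002 and 35297 CPM in ful-1 and 13791 to 14917 CPM in Ler pistils, and 5 of 5 fell without library 3. LHCB1.3 alone held 27268 CPM of the sum in library 3. There RBCS1A and PSAF also lay above all Ler libraries, while RCA (531 CPM) and LHCA1 (1090 CPM) lay below all of them. Over 4 phloem and vascular markers summed levels were 109, 133 and 28.3 CPM in ful-1 and 128 to 144 CPM in Ler pistils. The part of these markers in the aquaporin results was not tested.

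Of 16 proton pumps of plasma membrane and vacuole, 0 passed in edgeR over 6 libraries (0.186% of all genes did), with 2 at an unadjusted p under 0.05 and a median log2 fold change of -0.39, and without library 3 only VHA-A, the catalytic subunit of the vacuolar ATPase, passed, at -0.35 ± 0.08 (SE; adjusted p of 0.0400). Of 8 genes of aquaporin traffic and regulation, 7 were tested over 6 libraries and 0 passed in edgeR, with 1 at an unadjusted p under 0.05. Without library 3 only OST1, a kinase known to phosphorylate PIP2-1 in guard cells, rose, at 1.10 ± 0.15 (SE; adjusted p of 0.00899). OST1 had 18.4, 24.7 and 31.8 CPM in ful-1 pistils and 10.5, 9.74 and 9.05 CPM in Ler pistils, without overlap. Of 7 boron exporters, 0 passed in edgeR in either fit, with 0 at an unadjusted p under 0.05 over 6 libraries and 1 without library 3. Without library 3, 13.4% of all genes passed, so the counts of these lists are not set apart from it.

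The meristem comparison asked the same of ful-7 against Col-0. No aquaporin passed: 0 of 30 members tested at an adjusted p of 0.05 in edgeR, against 0.292% of all genes (0.199% higher and 0.0929% lower), with 6 members at an unadjusted p under 0.05, against 15.1% of all genes, and 1 called by DESeq2, against 3.59% of all genes there. The 6 were PIP1-5, TIP4-1, NIP5-1, NIP6-1, SIP1-1 and SIP1-2. SIP1-2, the one DESeq2 called, had 3.79, 5.58 and 1.79 CPM in ful-7 and 1.92, 1.29 and 0.880 CPM in Col-0, overlapping ranges, with a log2 fold change of 1.44 ± 0.45 (SE; adjusted p of 0.258 in edgeR and 0.0357 in DESeq2). NIP5-1, the boric acid channel of root uptake, had 3.604, 2.98 and 2.75 CPM in ful-7 and 2.27, 1.55 and 1.97 CPM in Col-0. NIP6-1, which passes boron to young shoot tissues, had 3.11, 2.45 and 2.79 CPM in ful-7 and 3.36, 4.45 and 4.76 CPM in Col-0. Neither pair of ranges overlapped, and the log2 fold changes were 0.68 ± 0.22 and -0.59 ± 0.20 (SE; adjusted p of 0.263 and 0.271).

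None of the 7 members called in pistils without library 3 passed in edgeR in meristems. TIP1-1 had 919, 993 and 761 CPM in ful-7 and 837, 699 and 806 CPM in Col-0, a log2 fold change of 0.19 ± 0.13 (SE; adjusted p of 0.513). PIP2-5 had 53.8, 59.2 and 46.9 CPM in ful-7 and 59.5, 56.9 and 48.7 CPM in Col-0, at -0.05 ± 0.12 (SE; adjusted p of 0.860). TIP1-2 had 962, 968 and 883 CPM in ful-7 and 856, 815 and 830 CPM in Col-0, and PIP1-5 had 30.2, 31.6 and 27.8 CPM against 36.0, 40.0 and 34.0 CPM. In these last members the ranges did not overlap, at log2 fold changes of 0.17 ± 0.09 and -0.30 ± 0.09 (SE; adjusted p of 0.415 and 0.259). PIP2-2 had 15.1, 9.02 and 21.2 CPM in ful-7 and 12.5, 22.8 and 10.07 CPM in Col-0, and PIP2-3 had 11.3, 7.75 and 17.9 CPM against 9.93, 17.3 and 9.50 CPM. Both pairs of ranges overlapped. PIP1-1 stood at 61.9 to 74.3 CPM in ful-7 and 51.8 to 77.5 CPM in Col-0, and PIP1-2 at 449.98 to 508 CPM in ful-7 and 359 to 449.55 CPM in Col-0.

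By overlap alone, 5 of 30 members were wholly higher in ful-7 (PIP1-2, TIP1-2, TIP2-1, NIP5-1 and SIP1-1), 2 wholly lower (PIP1-5 and NIP6-1) and 23 overlapped, where 12.2% and 10.7% of all genes were wholly higher and lower. The median log2 fold change of the members was 0.10, against -0.02 for all genes. Col-0 library 3 differed from the other meristem libraries in marker levels, with 67.1 CPM over 6 tapetum markers and 124 CPM over 4 phloem and vascular markers, against 12.3 to 31.4 CPM and 50.9 to 58.7 CPM in the other 5. Single genes held most of these sums, A6 with 52.4 CPM and SUC2 with 80.4 CPM. A9, MS1, APL and ATHB8 were also highest in this library, and AMS was not. DYT1 (0 CPM), TDF1 (0.163 CPM) and SULTR2.1 (2.93 CPM) were the lowest of the meristem libraries there. Col-0 library 3 was also the lowest meristem library for PIP2-1, a channel of root and guard cell water transport, with 145 CPM against 276 to 373 CPM. Col-0 library 3 was the highest meristem library for NIP7-1, with 3.16 CPM against 0.235 and 0.414 CPM in the other Col-0 libraries. Leaving out Col-0 library 3 left the count of called members at 0, against 0.408% of all genes. Of 15 proton pumps, 6 boron exporters and 7 genes of aquaporin traffic tested in meristems, 0 passed in edgeR and 0 had an unadjusted p under 0.05.

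**Figure D4:**
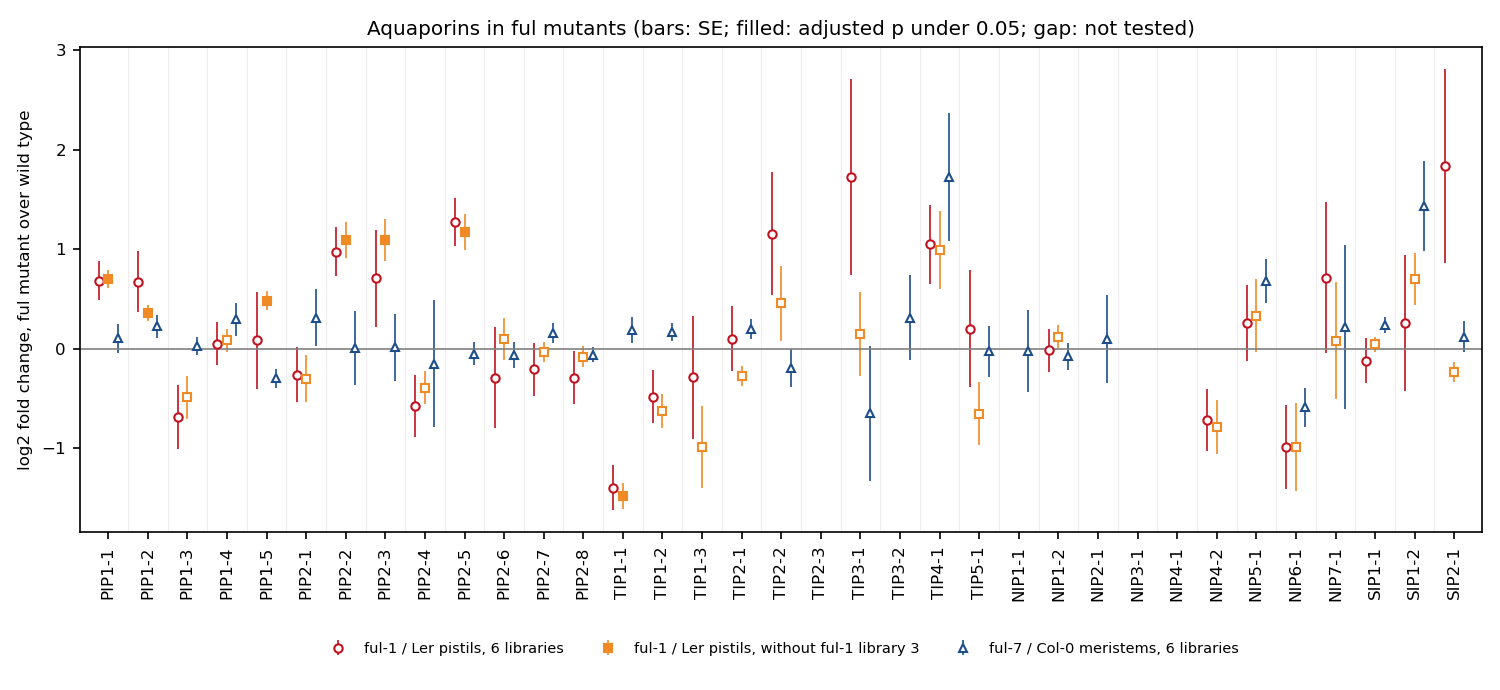
Log2 fold change of ful mutant over wild type for each aquaporin tested, in pistils over 6 libraries (circles), in pistils without ful-1 library 3 (squares) and in meristems (triangles); bars are SE and filled symbols have an adjusted p under 0.05 in edgeR. Only squares are filled, 6 above 0 (all PIPs) and 1 below (TIP1-1), and the meristem values of TIP1-1 and PIP2-5 lie near 0.

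Whether the effect of ful differed between the tissues was tested as a contrast of both effects over all 12 libraries. A positive value means a higher ratio of mutant to wild type in pistils. Of 32 members tested, 2 passed, against 0.751% of all genes (0.191% higher and 0.561% lower), and 6 had an unadjusted p under 0.05, against 12.2%. They were PIP2-5 at 1.28 ± 0.25 (SE; adjusted p of 0.0482) and TIP1-1 at -1.63 ± 0.24 (SE; adjusted p of 0.0126). PIP2-5 lay just under the threshold, and leaving out any 1 of the other 11 libraries moved its adjusted p to between 0.0605 and 0.165. TIP1-1 lost its call without Ler library 1 (0.0583), ful-7 library 1 (0.0639), ful-7 library 2 (0.0556) or Col-0 library 2 (0.0501), at values of -1.54 to -1.63. Without ful-1 library 3, 4 of 32 passed, against 10.2% of all genes (3.22% higher and 6.94% lower), and 8 had an unadjusted p under 0.05, against 25.0%. PIP2-5 then stood at 1.21 ± 0.22 and PIP1-5 at 0.77 ± 0.13 (SE; adjusted p of 0.00648 and 0.00535). TIP1-1 stood at -1.68 ± 0.20 and TIP1-2 at -0.81 ± 0.19 (SE; adjusted p of 0.00051 and 0.0239). Over all 12 libraries PIP1-5 and TIP1-2 had 0.40 ± 0.57 and -0.70 ± 0.24 (SE; adjusted p of 0.821 and 0.284). The tissues also differ in allele and ecotype, which cannot be told apart from the tissue here. Beside them, VHA-A had -0.50 ± 0.11 and OST1 1.72 ± 0.42 (SE; adjusted p of 0.0144 and 0.0272) without library 3. Over 12 libraries 0 of 16 proton pumps, 0 of 7 boron exporters and 0 of 8 traffic genes passed in edgeR, with 0, 0 and 1 at an unadjusted p under 0.05. OST1 had 10.5, 9.001 and 9.64 CPM in ful-7 and 11.4, 9.73 and 23.4 CPM in Col-0, where library 3 stood apart.

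The wild types were compared to see in which tissue each isoform is higher. PIP2-7 had the highest mean in both groups, and TIP1-1, TIP1-2, TIP2-1 and PIP1-2 were among the 6 highest in both. Of 32 members tested, 12 were higher and 10 lower in Ler pistils than in Col-0 meristems, and 10 did not pass. That is near the background, where 60.9% of all genes passed (31.8% higher and 29.1% lower in pistils), and at an unadjusted p under 0.05 there were 23 members, against 65.4% of all genes. The same wild-type libraries serve in the comparisons above, so the results are not independent, and ecotype and tissue cannot be told apart. By overlap, 12 members were wholly higher, 11 wholly lower and 9 overlapped, where 69.0% of all genes did not overlap (35.3% higher and 33.7% lower). The 10 that did not pass were PIP1-4, PIP1-5, PIP2-1, PIP2-5, TIP2-1, TIP3-1, NIP5-1, NIP6-1, NIP7-1 and SIP1-2, with log2 fold changes from -1.83 ± 1.04 (SE) for NIP7-1 to 0.71 ± 0.33 (SE) for NIP5-1. The value of NIP7-1 rested on Col-0 library 3, with 3.16 CPM against 0.235 and 0.414 CPM in the other Col-0 libraries. The 3 members not tested here were TIP2-3, NIP3-1 and NIP4-1. NIP4-1 had 17 counts in Ler pistils and 1 in Col-0 meristems, and NIP3-1 had 15 and 3.

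Of 9 TIPs tested, 3 were higher and 4 lower in pistils, and TIP2-1 and TIP3-1 did not pass. TIP1-1 averaged 366 ± 45.6 CPM in Ler pistils and 781 ± 71.9 CPM in Col-0 meristems (SD, n = 3 each), a log2 fold change of -1.08 ± 0.14 (SE; adjusted p of 0.000419). TIP1-2 averaged 494 ± 93.0 and 834 ± 21.0 CPM (-0.74 ± 0.15; adjusted p of 0.00461), and TIP2-2, a low isoform known from roots, 0.623 ± 0.109 and 3.09 ± 0.474 CPM (-2.29 ± 0.25; adjusted p of 0.000238). Among PIPs, 3 were lower in pistils: PIP2-8 averaged 19.2 ± 1.77 CPM in pistils and 75.3 ± 2.44 CPM in meristems, PIP1-3 436 ± 105 and 734 ± 31.1 CPM, and PIP2-7 728 ± 49.3 and 1058 ± 50.1 CPM. Their log2 fold changes were -1.96 ± 0.10, -0.74 ± 0.18 and -0.52 ± 0.11 (SE; adjusted p of 8.55e-06, 0.0105 and 0.00525). PIP2-8 had the lowest p of the family.

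Of the PIPs, 6 were higher in pistils. PIP2-6, which is known from vascular tissue, averaged 129 ± 19.3 CPM in Ler pistils and 41.3 ± 6.17 CPM in Col-0 meristems, at 1.66 ± 0.15 (SE; adjusted p of 9.12e-05). PIP2-2 and PIP2-3 averaged 38.3 ± 5.56 and 33.7 ± 4.62 CPM in pistils and 15.1 ± 6.74 and 12.3 ± 4.40 CPM in meristems, so the neighbours differed to a like degree (1.37 ± 0.29 and 1.48 ± 0.24, SE; adjusted p of 0.00503 and 0.00143). PIP1-1 averaged 137 ± 9.80 CPM in pistils and 63.3 ± 13.1 CPM in meristems, and PIP1-2 586 ± 12.2 and 414 ± 48.2 CPM (1.13 ± 0.15 and 0.52 ± 0.11, SE; adjusted p of 0.000516 and 0.00590). PIP2-4, a root isoform, averaged 2.66 ± 0.146 and 0.403 ± 0.291 CPM (2.68 ± 0.52; adjusted p of 0.00341). PIP1-2 and PIP2-7 missed the threshold in a fit of all 12 libraries (adjusted p of 0.0572 and 0.0684), and so did SIP1-1 (0.0634).

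The largest upward fold changes of the family, by the fitted values, belonged to isoforms known from pollen. NIP4-2, a pollen NIP, had 73, 73 and 64 counts in Ler pistils against 0, 0 and 1 count in Col-0 meristems, a ratio of counts per total count of 340 (95% exact counting interval 60.4 to 13498). TIP1-3, which acts in pollen tubes, averaged 0.949 ± 0.363 CPM in pistils and 0.0438 ± 0.0497 CPM in meristems (log2 fold change 4.21 ± 0.69, SE; adjusted p of 0.00142). TIP5-1, also known from pollen, averaged 14.9 ± 6.01 CPM in pistils and 1.12 ± 0.0629 CPM in meristems (3.74 ± 0.31, SE; adjusted p of 6.92e-05). The 6 pollen markers moved with them: their sum was 1198, 410 and 766 CPM in Ler pistils and 48.9, 34.8 and 49.4 CPM in Col-0 meristems, and 6 of 6 passed upwards. Across the Ler libraries TIP5-1 had 21.6, 9.86 and 13.3 CPM, TIP1-3 had 1.35, 0.649 and 0.846 CPM and NIP4-2 had 2.35, 2.15 and 1.80 CPM. The first pair had the same order as the marker sum and NIP4-2 did not, and the part of pollen in these results was not tested. TIP5-1 shares 9.10% of its exonic length with AT3G47450 on the opposite strand, whose level was 54.9 to 58.1 CPM in Ler pistils and 30.4 to 31.3 CPM in Col-0 meristems.

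The remaining calls were of low or narrowly called members. NIP1-1 and NIP2-1, both lower in pistils at -2.94 ± 0.44 and -3.81 ± 0.67 (SE; adjusted p of 0.000942 and 0.00206), stayed under 1 CPM in every wild-type library. NIP2-1 shares 59.7% of its exonic length with AT2G08660 and a stretch of 95.8% identity with AT2G29870, so its counts are uncertain. SIP1-1 averaged 63.2 ± 2.69 CPM in pistils and 44.8 ± 1.51 CPM in meristems (0.51 ± 0.08, SE; adjusted p of 0.00117). TIP4-1 (1.73 ± 0.62, SE; adjusted p of 0.0438), NIP1-2 (0.30 ± 0.10, SE; 0.0324) and SIP2-1 (-0.49 ± 0.16, SE; 0.0313) each lost the call when any 1 of 5 libraries was left out. These were the 3 Ler libraries with Col-0 libraries 2 and 3 for TIP4-1 and NIP1-2, and with Col-0 libraries 1 and 2 for SIP2-1, at adjusted p values of 0.0518 to 0.139, 0.0504 to 0.107 and 0.0567 to 0.0944. TIP3-2 (-2.23 ± 0.58, SE; adjusted p of 0.0126) lost it without Ler library 1 (0.05003) or 3 (0.0548), and stood at -2.997 without Ler library 2. TIP3-2 shares 39.4% of its exonic length with AT1G05333 on the opposite strand, so its counts are uncertain. AT1G05333 had 19.7 to 23.4 CPM in Ler pistils and 15.4 to 21.1 CPM in Col-0 meristems. Without Col-0 library 1 TIP4-1 stood at 2.75, and without Col-0 library 3 TIP1-3 stood at 5.37.

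**Figure D5:**
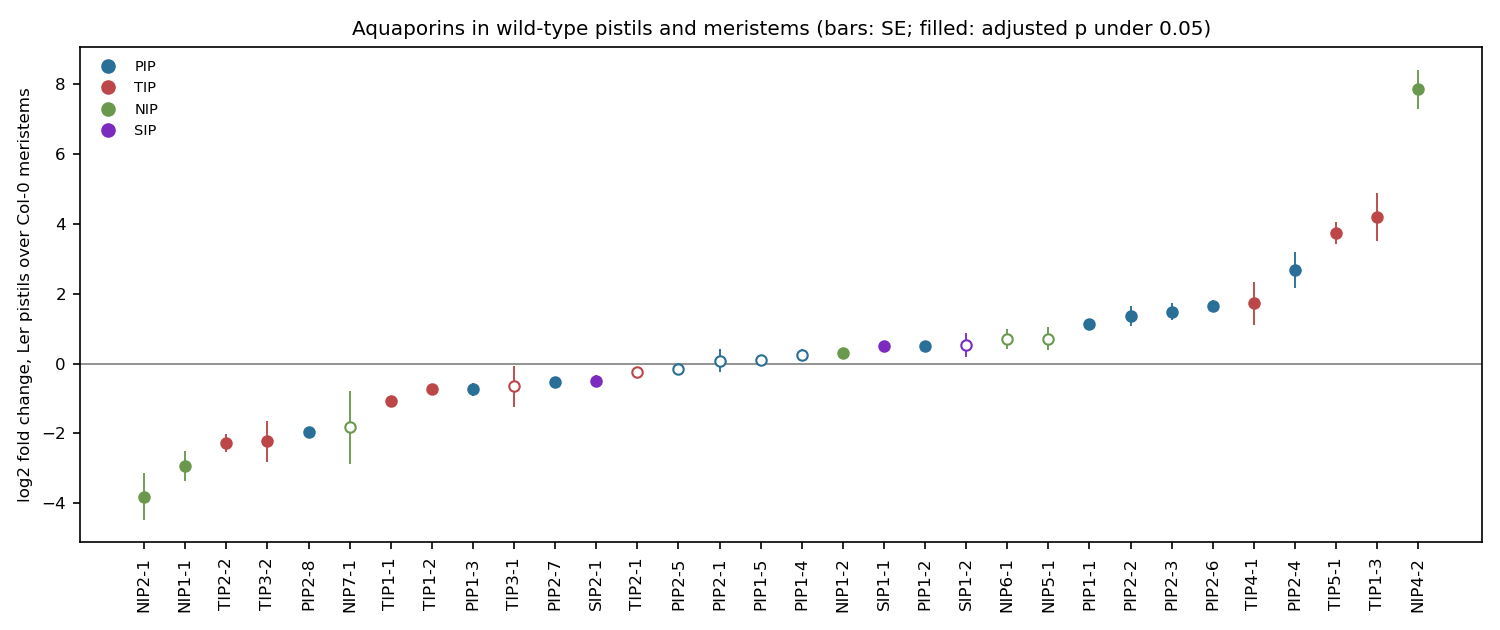
Log2 fold change of Ler pistils over Col-0 meristems for the 32 aquaporins tested, in rising order; bars are SE, colours give the subfamily and filled points have an adjusted p under 0.05 in edgeR. NIP4-2, TIP1-3 and TIP5-1 are highest and NIP2-1 lowest; the fitted value of NIP4-2 (7.86) rests on 1 count in the Col-0 libraries.

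Over all genes 60.9% passed, 31.8% higher and 29.1% lower in Ler pistils, and the counts of the other lists are read against these. Of 16 proton pumps, 11 were higher and 1 lower in Ler pistils. AHA8, a pump known from pollen, had 769, 310 and 492 CPM in Ler pistils against 15.5, 15.3 and 20.5 CPM in Col-0 meristems (4.95 ± 0.37, SE; adjusted p of 4.1e-05). VHA-A was higher too, at 0.72 ± 0.09 (SE; adjusted p of 0.000432), while AHA4 was lower, at -0.82 ± 0.24 (SE; 0.0209). Of 7 boron exporters 5 were higher and 0 lower, with BOR6 at 6.35 ± 0.60 and BOR4 at 3.66 ± 0.50 (SE; adjusted p of 0.000117 and 0.000634). Of 7 tested genes of aquaporin traffic, VAMP722 was higher, and the ubiquitin ligase gene RMA1 and the syntaxin gene SYP121 were lower, at 0.46 ± 0.09, -1.56 ± 0.35 and -0.38 ± 0.13 (SE; adjusted p of 0.00367, 0.00618 and 0.0395).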

How the data were processed

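Transcripts were measured by stranded paired-end RNA sequencing (150-base reads) in 12 libraries. The authors deposited whole-number counts per gene; per the submitters' processing notes, STAR 2.7.0b and featureCounts 1.6.0 were used with TAIR10. The strand setting of the counting is not given in the sources used here, so reads of genes that overlap on opposite strands may not have been kept apart. Columns were matched to groups by name.

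From these deposited counts, library scales (TMM), CPM and edgeR 4.0.16 quasi-likelihood F tests were computed on all genes left by edgeR's filter on low counts, with Benjamini-Hochberg adjustment over all of them and a threshold of 0.05. Each comparison between groups used its own 6 libraries, and the contrast of both effects used all 12. Standard errors follow from each fold change and its F statistic (log2 value over the root of F). DESeq2 1.42.0, other scaling and filters and the omission of each library in turn were alternatives; DESeq2 without ful-1 library 3 was chosen after seeing the data. Levels between genes used exonic lengths from the RefSeq annotation of TAIR10.1, which matched 36632 of 36917 genes. The fitting of the comparisons between groups was run on simulated counts drawn with less spread than the pistil libraries had. The contrast of both effects was not simulated. The simulation therefore does not show how the test performs on the pistil libraries or for the contrast. Counting intervals (exact, 95%) cover counting error only. Nothing in the labels says that libraries of a group came from separate cultures or plantings, so p-values measure the spread between these libraries.

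The members and gene lists were chosen with earlier results of these data known. Values in every library are given for members called in a ful comparison or in the difference, with or without a library that stands apart, for the 3 highest members per kb of each group and for the highest of each subfamily. Of each other list, up to 2 called genes per comparison with the lowest p are named. TIP4-1, SIP1-2, NIP5-1, NIP6-1 and SIP2-1 in the ful comparisons, PIP2-1, NIP7-1 and AHA4 were named after their values were seen.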

Additional observations from a re-analysis of the deposited data

Results flagged for a closer look

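The edgeR test of the difference of the ful effect between pistils and meristems called 2 of 32 aquaporins over 12 libraries, against 0.751% of all genes, and 4 of 32 without ful-1 pistil library 3, against 10.2%, which is near that share. Over 12 libraries PIP2-5 stood at 1.28 ± 0.25 (SE; adjusted p of 0.0482) and TIP1-1 at -1.63 ± 0.24 (SE; adjusted p of 0.0126) on the log2 scale, as the effect in pistils minus the effect in meristems. PIP2-5 lost the call on leaving out any 1 of the 11 libraries other than ful-1 library 3 (adjusted p of 0.0605 to 0.165), and TIP1-1 on leaving out any 1 of 4 (0.0501 to 0.0639). Without ful-1 pistil library 3, PIP1-5 stood at 0.77 ± 0.13 (SE; adjusted p of 0.00535) and TIP1-2 at -0.81 ± 0.19 (SE; adjusted p of 0.0239); over 12 libraries their adjusted p was 0.821 and 0.284. Tissue, allele and ecotype cannot be told apart in these values.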

How the results depend on the processing

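No paired analysis was possible because the deposited columns carry no replicate numbers. Counts of called members moved most in pistils. The share of all genes called in the same fit is given in brackets. For ful-1 against Ler pistils, 0 were called (0.186%), against 4 with DESeq2 (3.92%) and 2 in one fit of all 12 libraries (2.57%). Leaving out 1 library called 0 to 7 (0% to 13.4%), and DESeq2 without ful-1 library 3 called 8 (18.1%). For ful-7 against Col-0 meristems, DESeq2 called 1 (3.59%) and leaving out 1 library 0 (0.0437% to 0.408%). For the difference between tissues, 2 were called (0.751%), against 1 with no filter on low counts (0.372%). Leaving out 1 library there called 0 to 4 (0.222% to 10.2%), and DESeq2 without ful-1 library 3 called 6 (15.3%). For Ler pistils against Col-0 meristems, 22 were called (60.9%), and 18 to 21 on leaving out 1 library (50.8% to 64.3%). Of 525 values of 45 gene results under the alternatives, 455 kept their direction and side of the threshold, 38 lost the call, 26 gained it and 6 reversed. The reversals were in PIP1-5 and SIP2-1 in pistils and PIP2-5 in meristems. PIP1-5 ranged from -0.18 to 0.48 and SIP2-1 from -0.24 to 2.31 on leaving out 1 library, SIP2-1 stood at -0.24 with DESeq2 without ful-1 library 3, and PIP2-5 ranged from -0.13 to 0.035. The cause was not tested. TPM differs from CPM per kb by 1 factor per library, so it cannot change the order or the shares within a library; by group means it changed the rank of 10 members in ful-1 pistils, 0 in Ler pistils, 0 in ful-7 and 4 in Col-0 meristems. With 3 libraries a group and 13191949 counts in the smallest, differences of the lowest members were limited by depth.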
